A study of Mus musculus with 24 samples.

Results

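The NR4A and EGR immediate early factors were followed here as 8 genes of C2C12 muscle tissue, named by their symbols: the nuclear receptors Nr4a1, Nr4a2, and Nr4a3, the zinc finger factors Egr1, Egr2, and Egr3, the immediate early gene Ier2, and the serum response factor gene Srf. All 8 were found among the 56941 genes listed, and all 8 passed the filter on low counts that left 13315 genes for testing. C2C12 cells are mouse myoblasts that fuse into contractile myotubes once differentiated. All 24 tissues came from the same line with the genotype ChR2::tdTomato, in which a light-gated channel lets blue light trigger contraction, and all were differentiated in horse serum medium with IGF-1. The control tissues received no optical stimulation, and the others were stimulated with light for 60 min per day at 1 Hz, at 4 Hz, or at 10 Hz. Each of the 4 groups had 6 biological replicates. Below, stimulation means this daily light regimen. Per the paper, electrical pulses at 1 Hz were also applied to every tissue, controls included, to record contractions at day 10. The paper also reports spontaneous twitching in every condition, and states that the controls may therefore not be free of exercise. The interval from the last exercise or medium change to lysis is not given in the sources used here.

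Immediate early genes are transcribed within minutes of a stimulus, without new protein synthesis, and their mRNA is short-lived. Calcium and cAMP signals reach the NR4A genes mainly through CREB at cAMP response elements, while MAP kinase signals and actin dynamics reach the EGR genes mainly through SRF and its cofactors at CArG boxes. In skeletal muscle, contraction and beta-adrenergic signals are known to induce NR4A receptors, which regulate genes of glucose and fatty acid use, and Egr3 is known for its part in the development of muscle spindles.

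Libraries held between 8052370 and 18159100 estimated counts, and the biological coefficient of variation was 14.8%. All 8 myotube markers were at 1 TPM (transcripts scaled by length and library size) or more in the median library, with a summed level of 7875 to 13791 TPM per library. The sum of 6 markers of mononucleated myoblasts was 30.5 to 41.4 TPM without stimulation, and 40.1 to 62.1, 30.4 to 47.2, and 38.4 to 54.9 TPM after 1, 4, and 10 Hz. Endothelial markers summed to at most 0.326 TPM and adipocyte markers to at most 1.04 TPM. Fibroblast markers summed to 114 to 252 TPM over all libraries, mostly from Dcn, with medians of 153, 168, 147, and 163 TPM in the control, 1, 4, and 10 Hz groups. Leukocyte markers summed to 55.6 to 103 TPM, and of these 3 genes Cd68 was the 1 that reached 1 TPM in the median library, while Ptprc was at most 0.0310 TPM. The labels give myoblast as the cell type of these differentiated tissues. Ribosomal protein genes took 4.83% to 5.59% of control counts. The 1 Hz libraries gave them 4.96% to 7.97%, the 4 Hz libraries 5.85% to 8.19%, and the 10 Hz libraries 4.71% to 5.92%, and the mitochondrial share was 1.37% to 2.72%, 1.52% to 4.87%, 0.545% to 8.90%, and 1.44% to 2.56% in the control, 1, 4, and 10 Hz groups, highest in 4 Hz replicate 3. The part of these shifts in the results was not tested. In bulk tissue, fewer cells expressing a gene and less of its RNA per cell cannot be told apart.

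The genes lie on separate chromosomes of GRCm39 in the GENCODE M39 annotation, and all are protein coding. Nr4a1 (ENSMUSG00000023034) spans chr15:101151980-101172681 on the plus strand, Nr4a2 (ENSMUSG00000026826) chr2:56996842-57014331 on the minus strand, and Nr4a3 (ENSMUSG00000028341) chr4:48045153-48086447 on the plus strand. Egr2 (ENSMUSG00000037868) spans chr10:67371305-67378018 and Egr3 (ENSMUSG00000033730) chr14:70314350-70320063, both on the plus strand. Ier2 (ENSMUSG00000053560) spans chr8:85387960-85389483 and Srf (ENSMUSG00000015605) chr17:46857767-46867119, both on the minus strand, and Egr1 has the identifier ENSMUSG00000038418. Annotated genes on the opposite strand overlap Nr4a1, Nr4a3, Egr2, and Srf. On the same strand, Gm56721 overlaps Nr4a1 and Mir6976 overlaps Srf, which counting by strand would not separate. Per the study's methods the library kit was directional, but how the counting used strand is not stated in the sources used here. A part of the counts of these 4 genes may therefore come from the overlapping partners.

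Promoters of 5 of the 8 genes were matched by symbol in RefSeq (GRCm38.p6). The sequences below are the 250 bases upstream of the start, 5′ to 3′ on the strand of the gene, and are shown so that the promoters of members that moved and of members that did not can be compared. Capitals mark CRE core motifs (TGACG, or CGTCA on the other strand) and exact matches to the CArG box (CCWWWWWWGG, W for A or T), the binding motif of SRF. They cover chr15:101266596-101266845 for Nr4a1, chr2:57124004-57124253 for Nr4a2, chr4:48045055-48045304 for Nr4a3, chr10:67537619-67537868 for Egr2, and chr17:46556163-46556412 for Srf, all in GRCm38.p6.
Nr4a1: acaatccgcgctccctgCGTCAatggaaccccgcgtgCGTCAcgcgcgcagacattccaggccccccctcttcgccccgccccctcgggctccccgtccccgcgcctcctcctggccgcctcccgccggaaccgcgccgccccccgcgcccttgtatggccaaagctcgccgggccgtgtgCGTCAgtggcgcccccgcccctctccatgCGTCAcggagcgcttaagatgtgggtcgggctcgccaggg
Nr4a2: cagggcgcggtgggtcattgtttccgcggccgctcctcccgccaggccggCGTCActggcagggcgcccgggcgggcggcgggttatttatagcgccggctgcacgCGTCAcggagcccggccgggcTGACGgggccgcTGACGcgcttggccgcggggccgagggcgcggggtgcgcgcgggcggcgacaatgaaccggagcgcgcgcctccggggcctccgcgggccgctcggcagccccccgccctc
Nr4a3: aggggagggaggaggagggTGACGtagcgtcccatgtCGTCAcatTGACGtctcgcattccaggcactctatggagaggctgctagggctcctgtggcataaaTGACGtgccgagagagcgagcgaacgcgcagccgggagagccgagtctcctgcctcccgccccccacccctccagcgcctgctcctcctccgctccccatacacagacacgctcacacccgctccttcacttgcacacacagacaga
Egr2, RefSeq start 3: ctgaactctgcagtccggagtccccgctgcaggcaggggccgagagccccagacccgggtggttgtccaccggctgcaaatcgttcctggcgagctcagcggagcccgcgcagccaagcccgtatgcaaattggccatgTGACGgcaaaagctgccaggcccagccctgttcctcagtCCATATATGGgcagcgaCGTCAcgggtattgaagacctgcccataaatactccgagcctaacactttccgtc
Srf: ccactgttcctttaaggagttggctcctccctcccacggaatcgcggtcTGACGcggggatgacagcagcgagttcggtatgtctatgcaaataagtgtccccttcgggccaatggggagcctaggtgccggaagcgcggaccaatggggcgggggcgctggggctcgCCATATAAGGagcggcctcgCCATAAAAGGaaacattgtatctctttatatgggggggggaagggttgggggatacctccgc

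Each of the NR4A promoters held 4 CRE core motifs and no exact CArG box, and near matches to the box were not searched. Among 32851 promoters of the same length, 17.8% held a CRE core motif and 0.137% held at least 4. The cutoffs, at least 4 here and at least 2 for CArG boxes below, equal the counts in the promoters shown. Those promoters are themselves among the 32851. The Egr2 promoter shown held 1 CArG box and 2 CRE core motifs, and it is 1 of 5 starts listed for the gene, of which starts 2 to 5 each held 1 CArG box. The Srf promoter held 2 CArG boxes and 1 CRE core motif, whereas 1.47% of all promoters held a CArG box and 0.0183% held at least 2. The full CRE (TGACGTCA, which contains both core motifs), the NR4A motif NBRE (AAAGGTCA), and the EGR motif GCGTGGGCG, searched on both strands, had no match in these windows and were present in 1.55%, 1.34%, and 0.536% of all promoters. These matches describe letters in the window and not bound sites. Nr4a1 and Nr4a3 held equal numbers of core motifs and differed in the values below. Whether the motifs bear on the response was not tested.

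Nr4a1, Egr2, and Egr3 passed the test at both 1 and 4 Hz, Nr4a2 at 1 Hz, and Ier2 at 4 Hz, while Nr4a3, Egr1, and Srf passed at no frequency and no member passed at 10 Hz. Called changed here are genes with a Benjamini-Hochberg adjusted p below 0.05 whose log2(FC) exceeds 0.5 in size. At 1 Hz, 4 of the 8 genes rose (Nr4a1, Nr4a2, Egr2, and Egr3), while 14.9% of all tested genes changed, of which 7.19% were higher and 7.74% lower (as percents of the tested genes). At 4 Hz, 3 rose (Nr4a1, Egr2, and Ier2), while 25.1% of all tested genes changed, with 12.8% higher and 12.3% lower. By adjusted p alone the members' count was 4 at each of these frequencies, beside 37.3% and 51.4% of all tested genes. At 10 Hz, 0 of the 8 changed by edgeR, as against 0.0376% of all tested genes, and by an unadjusted p under 0.05 the count over all genes was 1074. None of the 8 had an unadjusted p under 0.05 at 10 Hz, the lowest being 0.121 for Nr4a2, and DESeq2 and limma also called 0 of them. The 3 comparisons share the control libraries, so their values are given side by side and not as independent results.

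**Figure D1:**
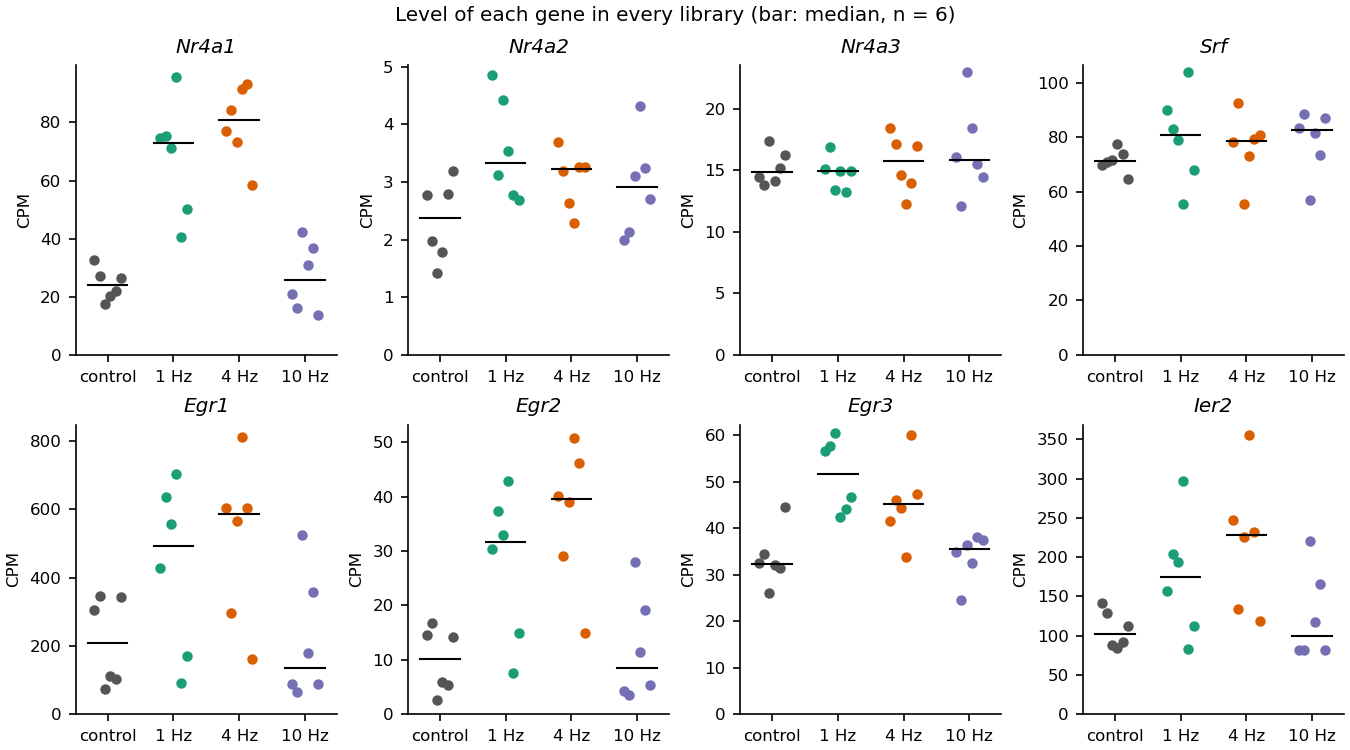
Level of each of the 8 genes in CPM (counts scaled to library size, linear axis from 0) in all 24 libraries, by condition, with 1 point per library and a bar at the median of 6. Nr4a1 at 1 and 4 Hz lies at 40.4 CPM or more, above every control library (highest 32.7 CPM), whereas Nr4a3 and Srf overlap in all conditions.

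Nr4a1, the orphan nuclear receptor also called Nur77, had the clearest separation. Its level was 17.7 CPM in the lowest control library, 24.2 in the median, and 32.7 in the highest. At 1 Hz the corresponding values were 40.4, 72.9, and 95.6 CPM, and at 4 Hz they were 58.5, 80.7, and 93.3 CPM. Every library at 1 and 4 Hz lay above every control library, which holds for 5.55% of all tested genes at 1 Hz and 12.9% at 4 Hz. At 10 Hz the levels were 13.8, 25.9, and 42.2 CPM, and they spread on both sides of the control range. The log2(FC) was 1.48 ± 0.24 (SE, n = 6 against 6, edgeR adjusted p = 6.53e-05) at 1 Hz and 1.71 ± 0.24 (adjusted p = 6.56e-06) at 4 Hz, or 2.79-fold and 3.27-fold. Ordered from the highest log2(FC), Nr4a1 was at place 41 of 13315 genes at 1 Hz and at place 29 at 4 Hz. At 10 Hz the log2(FC) was 0.13, with a 95% interval from -0.37 to 0.64 and an adjusted p of 0.964. Both calls stayed in all 22 alternatives, with log2(FC) from 1.19 to 1.59 at 1 Hz and from 1.33 to 1.81 at 4 Hz.

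Nr4a2, a receptor best known from dopamine neurons, was the lowest of the 8, with 16 to 58 estimated counts per library. Its level was 1.42 CPM in the lowest control library, 2.37 in the median, and 3.19 in the highest. At 1 Hz these values were 2.68, 3.33, and 4.85 CPM, so that 3 of 6 libraries lay above the controls. At 4 Hz they were 2.29, 3.23, and 3.69 CPM, and at 10 Hz 1.99, 2.91, and 4.33 CPM, with overlap in both. Nr4a2 rose at 1 Hz by 0.61 ± 0.21 on the log2 scale (SE, edgeR adjusted p = 0.0214). Neither 4 Hz, with a log2(FC) of 0.41 (adjusted p = 0.109), nor 10 Hz, with 0.34 (adjusted p = 0.745), passed. The call at 1 Hz was lost without control replicate 3 (adjusted p = 0.0589), control replicate 4 (0.0637), 1 Hz replicate 1 (0.0570), or 1 Hz replicate 3 (0.0580), and with limma on log2(TPM + 1), where the log2(FC) was 0.25 and the adjusted p 0.214.

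Nr4a3, the receptor that shares its binding motif with Nr4a1, had similar levels throughout. The lowest, median, and highest values were 13.8, 14.9, and 17.4 CPM in the controls and 13.2, 14.95, and 16.9 CPM at 1 Hz. They were 12.2, 15.8, and 18.4 CPM at 4 Hz and 12.1, 15.8, and 23.0 CPM at 10 Hz. The groups overlapped in every comparison. The log2(FC) was -0.04 at 1 Hz (95% interval -0.29 to 0.20), 0.04 at 4 Hz (-0.21 to 0.28), and 0.13 at 10 Hz (-0.12 to 0.37), with adjusted p of 0.811, 0.823, and 0.879. These intervals do not reach the log2(FC) of Nr4a1 at 1 and 4 Hz.

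Levels of different genes can be compared per transcript length, in TPM. Nr4a1 made up 65.7% to 80.7% of the summed NR4A level in the control libraries (median 72.8%). The share was 83.6% to 91.0% at 1 Hz (median 88.7%) and 85.8% to 92.5% at 4 Hz (median 90.03%), above every control library. At 10 Hz it was 62.0% to 80.3% (median 72.2%), overlapping the controls. For Nr4a3 the median share was 21.2% without stimulation and 8.01%, 7.52%, and 21.0% at 1, 4, and 10 Hz, and the median share of Nr4a2 stayed between 2.45% and 5.82%. No test was run on these shares.

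**Figure D2:**
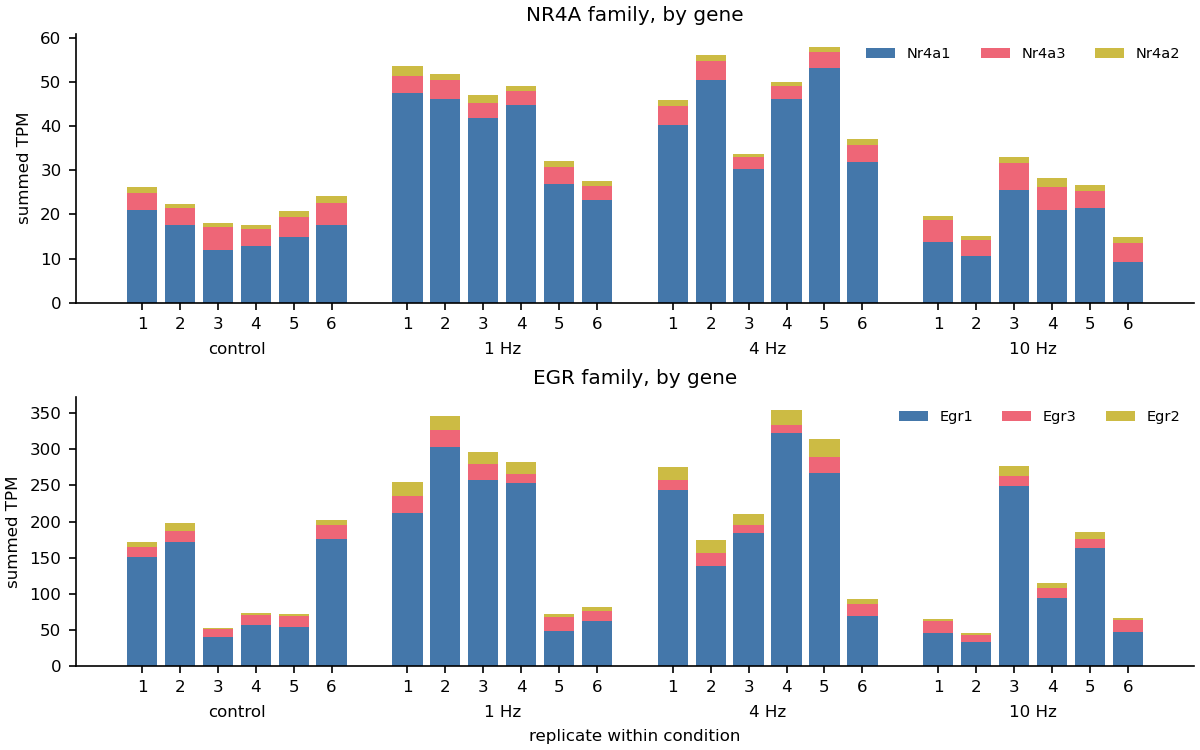
Summed level in TPM (linear axis from 0) of the NR4A family and of the EGR family in each of the 24 libraries, stacked by gene, with libraries numbered 1 to 6 within each condition. Nr4a1 has a median share of 88.7% and 90.03% of the NR4A sum at 1 and 4 Hz, and Egr1 has the largest share of the EGR sum in every condition (median 77.0% to 86.3%).

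Egr1, the founding EGR factor and a standard readout of growth factor and contraction signals, varied several-fold between replicates of every condition. Its level was 74.1 CPM in the lowest control library, 209 in the median, and 346 in the highest. At 1 Hz these values were 91.9, 493, and 704 CPM, and at 4 Hz 161, 585, and 811 CPM. In each of these conditions 4 of 6 libraries lay above all controls and the others lay inside their range. At 10 Hz they were 63.7, 134, and 524 CPM. The ratio of the highest to the lowest library was 4.67 without stimulation, then 7.65, 5.04, and 8.23 at 1, 4, and 10 Hz. The log2(FC) was 1.01 ± 0.59 (SE, edgeR adjusted p = 0.188) at 1 Hz and 1.25 ± 0.60 (adjusted p = 0.0865) at 4 Hz, and neither passed the test. With 95% intervals of -0.23 to 2.25 and 0.00 to 2.49, a rise as large as that of Nr4a1 lies inside both. At 10 Hz the log2(FC) was 0.02 (adjusted p = 0.999).

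Egr2, which drives Schwann cell myelination and is also an immediate early gene of many cells, followed a similar spread but passed the test. Its level was 2.58 CPM in the lowest control library, 10.1 in the median, and 16.7 in the highest. At 1 Hz these values were 7.60, 31.6, and 42.9 CPM, and at 4 Hz 14.9, 39.6, and 50.8 CPM. Of the 6 libraries, 4 at 1 Hz and 5 at 4 Hz lay above all controls. At 10 Hz they were 3.45, 8.40, and 28.0 CPM, with 2 of 6 above. The Schwann cell markers summed to 0.721 to 1.78 TPM over all libraries, with none at 1 TPM or more in the median library. Egr2 rose by 1.48 ± 0.52 (SE, edgeR adjusted p = 0.0318) at 1 Hz and by 1.88 ± 0.52 (adjusted p = 0.00561) at 4 Hz on the log2 scale, and at 10 Hz the log2(FC) was 0.24 (adjusted p = 0.976). The call at 4 Hz stayed in all 22 alternatives. The call at 1 Hz was lost without control replicate 3, 4, or 5 or without 1 Hz replicate 2, 3, or 4 (adjusted p = 0.0545 to 0.0818), without a filter on low counts (0.0722), and with limma on log2(TPM + 1) (0.0711).

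Egr3, the EGR factor of muscle spindle development, moved less and varied less. Its level was 26.1 CPM in the lowest control library, 32.4 in the median, and 44.6 in the highest. At 1 Hz these values were 42.5, 51.7, and 60.5 CPM, and 4 of 6 libraries lay above all controls. At 4 Hz they were 33.8, 45.3, and 60.1 CPM, and at 10 Hz 24.5, 35.6, and 38.0 CPM. Egr3 rose at 1 Hz by 0.61 ± 0.13 on the log2 scale (SE, edgeR adjusted p = 6.96e-04), and its rise of 0.44 ± 0.13 after 4 Hz (adjusted p = 0.00659) stayed under the 0.5 threshold. At 10 Hz the log2(FC) was 0.02 (adjusted p = 0.994). Both calls depend on the scale, since with limma on log2(TPM + 1) the values were 0.31 (adjusted p = 0.173) and 0.06 (adjusted p = 0.822). TPM values shift all genes, whose median log2(FC) was then -0.14 and -0.21, compared with 0.04 and 0.06 on the CPM scale.

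Within the EGR sum in TPM, Egr1 held a median share of 81.6% in control libraries, with 85.1% after 1 Hz, 86.3% after 4 Hz, and 77.0% after 10 Hz. The median share of Egr2 was 4.17%, 5.89%, 7.18%, and 4.87% in the same order, and every library at 1 and 4 Hz (5.43% or more and 6.001% or more) exceeded the highest control library of 5.38%. The median share of Egr3 was 14.4%, 8.54%, 6.26%, and 17.8%, with overlap between all conditions. No test was run on the EGR shares either.

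Ier2, a short intronless immediate early gene whose product acts in the nucleus, rose at 4 Hz. Its level was 84.3 CPM in the lowest control library, 102 in the median, and 142 in the highest. At 1 Hz these values were 83.6, 175, and 297 CPM, at 4 Hz 119, 229, and 355 CPM, and at 10 Hz 81.7, 99.9, and 220 CPM. Both 1 and 4 Hz had 4 of 6 libraries above all controls. The log2(FC) was 1.02 ± 0.32 (SE, edgeR adjusted p = 0.0115) at 4 Hz, 0.70 ± 0.32 (adjusted p = 0.0891) at 1 Hz, and 0.21 (adjusted p = 0.950) at 10 Hz. Leaving out 1 Hz replicate 5 let the 1 Hz value pass (adjusted p = 0.0361), and the 4 Hz call was lost with limma on log2(TPM + 1) (log2(FC) 0.62, adjusted p = 0.0747).

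Srf, which encodes the factor that binds CArG boxes in immediate early and actin genes, did not pass the test at any frequency. The lowest, median, and highest levels were 64.6, 71.2, and 77.6 CPM in the controls and 55.6, 80.9, and 104 CPM at 1 Hz. They were 55.5, 78.8, and 92.5 CPM at 4 Hz and 56.8, 82.5, and 88.5 CPM at 10 Hz. In each stimulated group 4 libraries lay above the controls and 1 below them. The log2(FC) was 0.16 (95% interval -0.10 to 0.41, adjusted p = 0.322), 0.10 (-0.15 to 0.36, 0.510), and 0.14 (-0.12 to 0.39, 0.877) at 1, 4, and 10 Hz. With limma on log2(TPM + 1) the sign turned, giving -0.13 (adjusted p = 0.654) and -0.19 (adjusted p = 0.453) at 1 and 4 Hz.

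**Figure D3:**
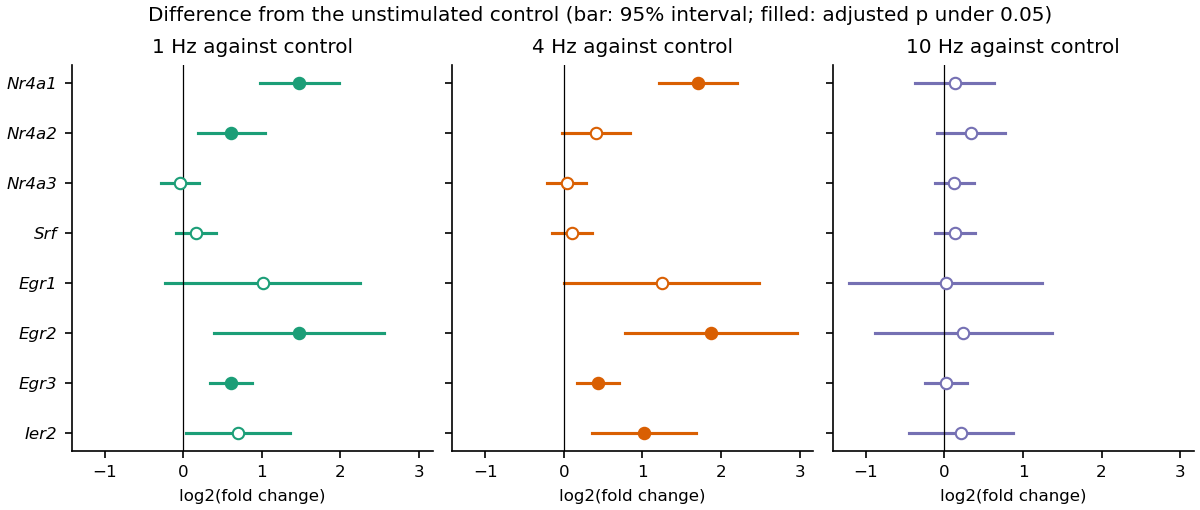
Log2(FC) of the 8 genes against the unstimulated control at 1, 4, and 10 Hz, with the 95% interval as a bar and a filled point where the adjusted p was under 0.05. Nr4a1 reaches 1.48 and 1.71 and Egr2 1.48 and 1.88 at 1 and 4 Hz, the interval of Egr1 is wide at every frequency, and no point is filled at 10 Hz.

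The frequencies were then compared with each other in the same fit. Between 4 and 1 Hz, 0 of the 8 genes changed, as did 0% of all tested genes by edgeR (1465 genes had an unadjusted p under 0.05, none of them a member). DESeq2 and limma also called 0 of the 8. For Nr4a1 the log2(FC) of 4 against 1 Hz was 0.23, with a 95% interval from -0.25 to 0.71, and for Egr2 it was 0.40, from -0.63 to 1.43. Against 1 Hz, 2 of the 8 fell at 10 Hz, Nr4a1 and Egr3, while 10.8% of all tested genes changed, 4.99% were lower, and 27.9% passed by adjusted p alone. Nr4a1 fell by 1.35 ± 0.24 on the log2 scale (SE, edgeR adjusted p = 3.24e-04), and 5 of 6 libraries at 10 Hz lay below all at 1 Hz. Egr3 fell by 0.59 ± 0.13 (adjusted p = 0.00161), and all 6 libraries at 10 Hz lay below those at 1 Hz, which holds for 2.67% of all tested genes. With limma on log2(TPM + 1) the log2(FC) of Egr3 was -0.37 (adjusted p = 0.126).

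Against 4 Hz, 3 of the 8 fell at 10 Hz, Nr4a1, Egr2, and Ier2, while 21.2% of all tested genes changed, 10.6% were lower, and 46.3% passed by adjusted p alone. Nr4a1 fell by 1.58 ± 0.24 on the log2 scale (SE, edgeR adjusted p = 2.71e-05), with all 6 libraries at 10 Hz below all at 4 Hz, as for 8.10% of all tested genes. Egr2 fell by 1.63 ± 0.53 (adjusted p = 0.0157), with 4 of 6 libraries below all at 4 Hz. Egr3 fell by 0.42 ± 0.13 (adjusted p = 0.0108), under the 0.5 threshold, and with limma on log2(TPM + 1) its log2(FC) was -0.11 (adjusted p = 0.631). The log2(FC) of Ier2 was -0.81 ± 0.32 (adjusted p = 0.0424), and the call was lost in 14 of 22 alternatives, including the removal of 1 library at a time among 4 Hz replicates 1, 3, 4, and 5 and 10 Hz replicates 1, 2, 4, and 6 (adjusted p = 0.0646 to 0.127). For Egr1 the log2(FC) was -1.23 ± 0.60 (adjusted p = 0.0981), and without 10 Hz replicate 3 it was -1.69 (adjusted p = 0.0273). In Egr2, 10 against 1 Hz gave -1.23 (adjusted p = 0.0832), which passed without 1 Hz replicate 5 (0.0367) or 10 Hz replicate 3 (0.0237).

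Replicates within a condition differed in the level of several factors at once. In the controls, replicates 1, 2, and 6 had 306, 346, and 343 CPM of Egr1 and 14.6, 16.7, and 14.2 CPM of Egr2, whereas replicates 3, 4, and 5 had 74.1, 112, and 103 CPM of Egr1 and 2.58, 5.94, and 5.32 CPM of Egr2. At 1 Hz, replicates 5 and 6 stood below the other 4 with 91.9 and 170 CPM of Egr1 and 7.60 and 14.96 CPM of Egr2. At 10 Hz, replicate 3 had 524 CPM of Egr1 and 28.0 CPM of Egr2, and replicate 2 had 63.7 and 3.45 CPM. The labels name no batch, plate, or lysis time that separates these libraries. They do say that low-input samples were ribodepleted in place of poly(A) selection, without saying which.

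With the mean of each condition subtracted from log2 CPM, Egr1 was compared over the 24 libraries with the other 7 genes and with 4 properties of the libraries, or 11 relations. Permutations were made within conditions, and 1e-05 is the smallest p they can give. Egr2 followed Egr1 closely (Pearson's r = 0.981, Spearman's rho = 0.980, permutation p = 1e-05 for both, adjusted p = 3.7e-05), and within single conditions r was 0.979 to 0.994. Ier2 did so too (r = 0.930, rho = 0.913, permutation p = 1e-05 for both, adjusted p = 3.7e-05), and so did Nr4a1 (r = 0.894, rho = 0.877, permutation p = 1e-05 for both, adjusted p = 3.7e-05). Without the 2 libraries farthest from the median of Egr1 (1 Hz replicate 5 and 4 Hz replicate 6), r was 0.976, 0.905, and 0.872. Srf ran the other way (r = -0.587, permutation p = 0.0058, rho = -0.636, permutation p = 0.0026, adjusted p = 0.016), with r = -0.506 without these 2 libraries and r below 0 within each condition. Srf itself was not compared with the properties of the libraries. It was lowest in 4 Hz replicate 3 and 1 Hz replicate 4 (55.5 and 55.6 CPM), where ribosomal protein genes took 8.19% and 7.60% of counts. In 1 Hz replicate 5, where Srf was highest (104 CPM), they took 4.96%. In 4 Hz replicate 1 they took 8.16%, with 78.3 CPM of Srf. Whether this bears on the relation of Srf to Egr1 was not tested.

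Nr4a2 (r = 0.464, rho = 0.406, permutation p = 0.041 and 0.078, adjusted p = 0.09), Egr3 (r = 0.387, rho = 0.410, permutation p = 0.078 and 0.066, adjusted p = 0.12), and Nr4a3 (r = 0.236, rho = 0.152, permutation p = 0.33 and 0.51, adjusted p = 0.45) did not pass. Total counts (r = -0.123, rho = -0.110, permutation p = 0.6 and 0.63, adjusted p = 0.73), the mitochondrial share (r = -0.058, rho = -0.067, permutation p = 0.79 and 0.74, adjusted p = 0.79), and the summed myotube markers (r = 0.091, rho = 0.234, permutation p = 0.69 and 0.28, adjusted p = 0.76) did not pass either. The share of ribosomal protein genes gave r = 0.424 and rho = 0.423 (permutation p = 0.051 and 0.049, adjusted p = 0.094). In these 7 relations r without 1 Hz replicate 5 and 4 Hz replicate 6 was 0.482, 0.395, 0.258, -0.042, -0.067, 0.159, and 0.261 in the order given.

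**Figure D4:**
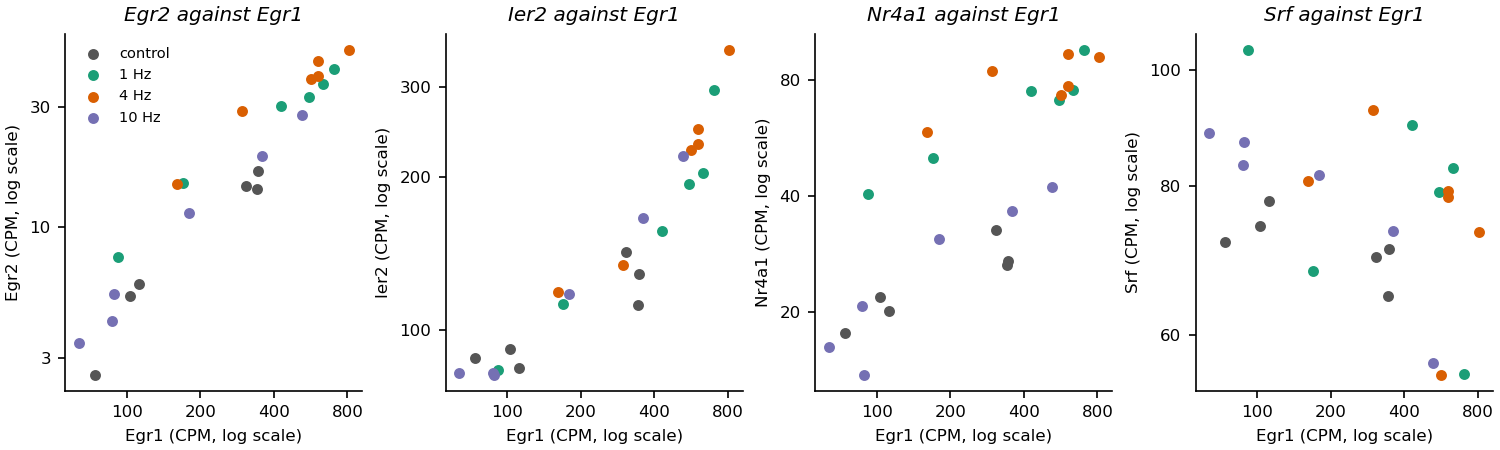
Level of Egr2, Ier2, Nr4a1, and Srf against the level of Egr1 in each of the 24 libraries (CPM, both axes on a log scale), colored by condition. Egr2, Ier2, and Nr4a1 are higher where Egr1 is higher. At a like level of Egr1, the 4 Hz replicate 2 (298 CPM of Egr1) has 29.2 CPM of Egr2 and 84.3 CPM of Nr4a1, against 14.6 and 32.7 CPM in control replicate 1 (306 CPM of Egr1).

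Nr4a1 and Egr2 stood higher at 1 and 4 Hz also at a like level of Egr1. The 1 Hz replicate 5 had 91.9 CPM of Egr1, fewer than the 103 and 112 CPM of control replicates 5 and 4, and still had 40.4 CPM of Nr4a1 against 21.9 and 20.1 CPM. Its Egr2 was 7.60 CPM against 5.32 and 5.94 CPM. Such pairs are examples, and 10 Hz libraries fell on both sides. The 10 Hz replicate 5 (359 CPM of Egr1) had 36.7 CPM of Nr4a1 and 19.2 CPM of Egr2. Control replicates 2 and 6 (346 and 343 CPM of Egr1) had 27.2 and 26.5 CPM of Nr4a1 and 16.7 and 14.2 CPM of Egr2. The 10 Hz replicate 6 (88.8 CPM of Egr1) had 13.8 CPM of Nr4a1, below every control library. With the log2 CPM of Egr1 as a covariate in the edgeR fit, a setting chosen after the data had been seen, Nr4a1 differed from the controls by 1.11 on the log2 scale at 1 Hz (adjusted p = 8.85e-08) and by 1.25 at 4 Hz (adjusted p = 1.46e-08). Egr2 then differed by 0.66 (adjusted p = 7.72e-05) and 0.86 (2.37e-06), and Egr3 by 0.53 (0.00261) and 0.34 (0.0484). For Ier2 the values were 0.14 (0.405) and 0.31 (0.0603), and for Nr4a2 they were 0.47 (0.0820) and 0.23 (0.407), so that neither passed. At 10 Hz none of these passed, with Nr4a1 at 0.13 (0.730). Egr1 is itself a member measured in the same libraries, and the fit assumes 1 slope on Egr1 for all conditions. For Egr3, Pearson's r with Egr1 was 0.76 in the controls and -0.30 at 4 Hz. These values therefore describe differences at an equal fitted level of Egr1 and are not a separate test of the stimulation.

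Per transcript length, the controls ranked Ier2 first with a median of 116 TPM, before Egr1 with 103, Srf with 52.4, Nr4a1 with 16.2, Egr3 with 14.7, Egr2 with 5.40, Nr4a3 with 4.22, and Nr4a2 with 1.06 TPM. The ranges of neighbors overlapped for Ier2 and Egr1, Egr1 and Srf, Nr4a1 and Egr3, and Egr2 and Nr4a3, and did not overlap for the other neighbors. At 1 and 4 Hz, Egr1 came first (medians of 233 and 214 TPM) before Ier2 (184 and 191 TPM), again with overlap. Nr4a1 reached medians of 43.3 and 43.1 TPM, next to Srf with 53.1 and 49.9 TPM, and their ranges overlapped there although they did not in the controls. At 4 Hz, Egr2 (17.4 TPM) stood above Egr3 (15.5 TPM), with overlap. At 10 Hz the order was that of the controls, with Nr4a1 at 17.4 TPM.

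Of 34 other immediate early genes, 33 were tested, and 10 rose and 1 fell at 1 Hz, with a median log2(FC) of 0.49 beside 0.04 over all tested genes. At 4 Hz, 19 rose and 1 fell, with a median of 0.68 beside 0.06, and at 10 Hz 0 changed, with a median of 0.08 beside 0.01. Over all tested genes, 7.19% rose and 7.74% fell at 1 Hz, and 12.8% rose and 12.3% fell at 4 Hz. At 10 Hz 0.0376% of all tested genes changed. On the log2(TPM + 1) scale with limma, 6 of the listed genes rose and 2 fell at 1 Hz, and 11 rose and 2 fell at 4 Hz. Fosb, an AP-1 subunit, rose by 1.56 ± 0.47 on the log2 scale at 1 Hz (edgeR adjusted p = 0.0135) and by 2.22 ± 0.47 at 4 Hz (adjusted p = 6.20e-04). Ccn1, a secreted matricellular protein, rose by 1.56 ± 0.49 (adjusted p = 0.0185) and 1.98 ± 0.50 (adjusted p = 0.00277). The AP-1 gene Fosl1 fell by 0.54 ± 0.10 (adjusted p = 1.60e-04) and 0.63 ± 0.10 (adjusted p = 1.24e-05). For Fos the log2(FC) was 1.15 ± 0.85 (adjusted p = 0.303), 1.496 ± 0.86 (adjusted p = 0.152), and 0.09 (adjusted p = 0.994) at 1, 4, and 10 Hz. Like Egr1, Fos did not pass the test at any frequency.

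**Figure D5:**
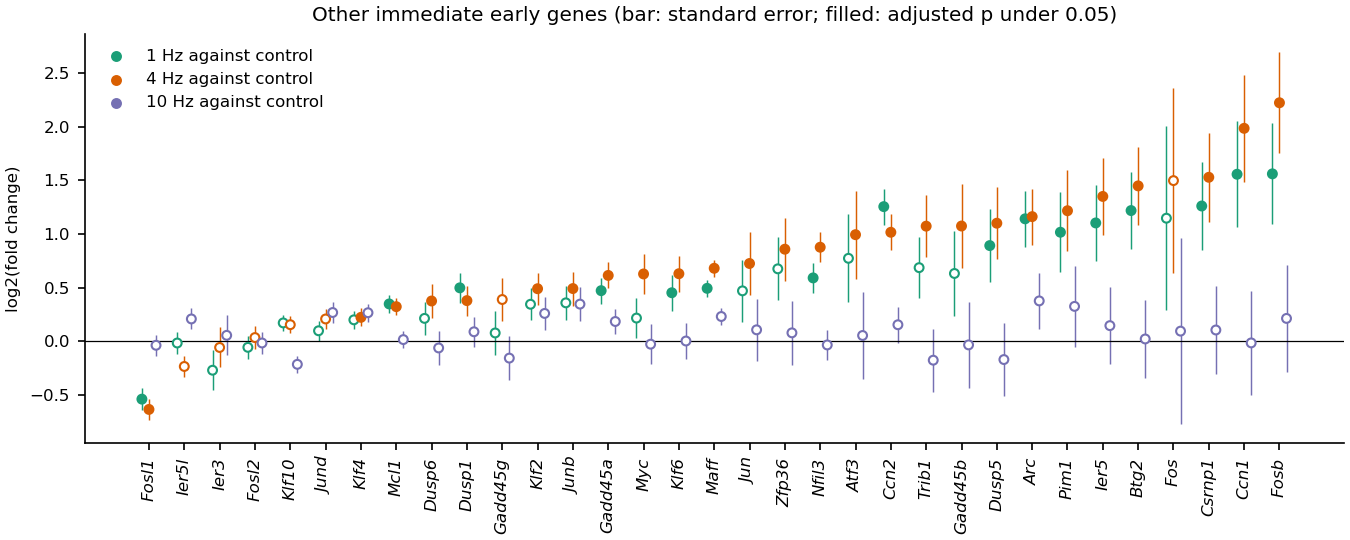
Log2(FC) against the control at 1, 4, and 10 Hz for the other immediate early genes that were tested (33 of 34), with the standard error as a bar and a filled point where the adjusted p was under 0.05. Fosb and Ccn1 are highest at 4 Hz (2.22 and 1.98), Fosl1 lies below 0 at 1 and 4 Hz (-0.54 and -0.63), and no point is filled at 10 Hz.

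The CREB family and its coactivators act upstream of several of the factors. Among these 8 genes, 2 fell at 1 Hz and 4 at 4 Hz, with medians of -0.27 and -0.50. The share of all tested genes that fell was 7.74% and 12.3%. Crtc1, a coactivator that enters the nucleus after calcium signals, fell by 0.90 ± 0.12 (adjusted p = 3.62e-06) and 1.02 ± 0.12 (adjusted p = 3.86e-07). Creb1, the binding factor itself, fell by 0.55 ± 0.10 (adjusted p = 1.82e-04) and 0.69 ± 0.10 (adjusted p = 7.28e-06), and the acetyltransferase gene Ep300 fell by 0.73 ± 0.22 (adjusted p = 0.00772) at 4 Hz. On the log2(TPM + 1) scale, 1 of the CREB list fell at 1 Hz. At 10 Hz, 0 genes of the list changed.

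Of 4 tested partners and corepressors (of 5), 1 fell at each of 1 and 4 Hz, beside 7.74% and 12.3% of all tested genes. Nab2, which represses EGR proteins and is itself an EGR target, had 158 to 201 CPM in control libraries, and 87.5 to 128 and 84.5 to 107 CPM after 1 and 4 Hz, without overlap with the controls, as for 8.58% and 14.7% of all tested genes in this direction. It fell by 0.73 ± 0.09 (edgeR adjusted p = 1.69e-06) and 0.88 ± 0.09 (adjusted p = 5.28e-08) on the log2 scale. At 10 Hz it had 153 to 220 CPM, and 0 of the 4 genes changed.

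Known targets of the factors did not move in 1 direction. Of 11 tested EGR targets (of 12), 2 rose and 3 fell at 1 Hz, and 1 rose and 3 fell at 4 Hz. Those that fell at 1 and 4 Hz include Nab2, already counted among the partners and corepressors above. At 10 Hz 0 EGR targets changed, and the medians were 0.04, 0.06, and 0.17 at 1, 4, and 10 Hz. Over all tested genes, 7.19% rose and 7.74% fell at 1 Hz, and 12.8% rose and 12.3% fell at 4 Hz. F3, the tissue factor gene, rose by 0.88 ± 0.15 (edgeR adjusted p = 7.99e-05) and 0.84 ± 0.15 (adjusted p = 7.78e-05), and Thbs1, which encodes thrombospondin 1, rose by 0.65 ± 0.18 (adjusted p = 0.00691) at 1 Hz. On the log2(TPM + 1) scale, 1 EGR target rose at 1 Hz and 0 at 4 Hz. Ngfr, the p75 neurotrophin receptor gene, fell by 2.78 ± 0.28 (adjusted p = 6.49e-08) and 2.89 ± 0.30 (adjusted p = 3.45e-08), with 4.32 to 8.36 CPM in control libraries, 0.366 to 1.56 CPM after 1 Hz, and 0.499 to 1.27 CPM after 4 Hz. Fgf2, a fibroblast growth factor gene, fell by 0.95 ± 0.20 (adjusted p = 4.66e-04) at 4 Hz.

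Of 15 SRF targets of actin and adhesion, 1 rose at each of 1, 4, and 10 Hz, with medians of 0.06, -0.17, and -0.02. Over all tested genes, 7.19% and 12.8% rose at 1 and 4 Hz, and 0.0376% changed at 10 Hz. The SRF target that rose was Fhl2, a LIM-domain cofactor. Its rise was 1.29 ± 0.09 (edgeR adjusted p = 9.62e-11), 1.25 ± 0.09 (adjusted p = 9.07e-11), and 0.57 ± 0.09 (adjusted p = 0.00337). Control libraries held 28.1 to 40.2 CPM, and the 1, 4, and 10 Hz libraries 75.6 to 96.1, 75.7 to 90.5, and 45.7 to 61.4 CPM, so every stimulated library lay above all controls, as at 10 Hz for 0.774% of all tested genes. On the log2(TPM + 1) scale, 6 of the 15 fell at 4 Hz and 0 rose at 10 Hz. Of 10 tested metabolic genes linked to NR4A1 in muscle (of 11), 1 fell at 1 Hz and 1 at 4 Hz and 0 rose. These counts are near the shares of all tested genes that fell, 7.74% and 12.3%. Ucp3, a mitochondrial uncoupling protein gene, fell by 1.17 ± 0.19 (adjusted p = 2.92e-05) and 0.83 ± 0.18 (adjusted p = 6.06e-04). At 10 Hz 0 of the 10 changed, all 10 had a log2(FC) below 0, and the median was -0.21. Genes on the opposite strand overlap Ccn1, Fosl1, Crtc1, Nab2, F3, Thbs1, Fgf2, Fhl2, and Ucp3, so their counts carry the same limit as above.

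The genes most like each factor were sought among the 13314 other tested genes, by Pearson's r of log2 CPM over the 24 libraries with the mean of each condition subtracted. For Nr4a1 they were Pim3 (r = 0.950), Btg2 (0.948), and Pim1 (0.926). For Egr1 they were Fos (0.993), Egr2 (0.981), and Ier5 (0.974), and for Egr2 they were Ccn1 (0.983), Egr1 (0.981), and Ier5 (0.977). For Ier2 they were Jun (0.967), Zfp36 (0.941), and Pnrc1 (0.935). Btg2, Pim1, Fos, Ier5, Ccn1, Jun, and Zfp36 also belong to the list of other immediate early genes above. The neighbors of Srf were Lrrc59 (0.951), Cap1 (0.929), and Mrtfa (0.928), and those of Egr3 were Tsc22d2 (0.852), Snx18 (0.825), and Sde2 (0.824). Nr4a2 (Ets1 0.749, Lpin2 0.726, Gcnt2 0.724) and Nr4a3 (Hs3st3b1 0.730, Ccno 0.697, Gm46404 0.671) had lower values. All points share the library, and these correlations are a description without a test.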

How the data were processed

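The authors sequenced RNA from 24 C2C12 tissues after poly(A) selection, with a directional library kit. Per the labels, low-input samples were ribodepleted in place of poly(A) selection, without saying which. Per the study's methods, reads went through nf-core/rnaseq with the Ensembl annotation of GRCm39, and the deposited tables and the submitters' notes name salmon. The authors deposited salmon estimated counts per gene, not normalized, and TPM per gene, scaled by transcript length and to a fixed library sum. Whether the counting used strand is not given in the sources used here. Submitters' processing notes also list BWA 0.7.12-r1039, bedtools 2.25.0, and STAR. The methods give BWA-MEM for mapping and bedtools, in another version, for quality metrics, and whether these values used BWA or STAR is not given in the sources used here.

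Before testing, estimated counts were rounded and filtered by filterByExpr in edgeR 4.0.16 under R 4.3.3 (minimum count 10, minimum total 15). Library sizes were scaled by TMM, and 1 quasi-likelihood fit with robust dispersions and a mean per condition was made over all 24 libraries. P-values were adjusted by Benjamini-Hochberg over 13315 genes. CPM uses the TMM-scaled library sizes, and log2 CPM a prior count of 2. Tests were two-sided, and the edgeR, DESeq2, and limma fits were tested on simulated counts. Depth of 8052370 to 18159100 counts per library limits precision mainly for Nr4a2.

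The members and lists were chosen with earlier results of these data known. All 8 members are named, as are up to 2 changed genes per list, direction, and comparison with the control with the largest absolute log2(FC), Fos, and the 3 genes most like each member. GENCODE M39 gave gene positions for 98.9% of identifiers, and RefSeq (GRCm38.p6) gave promoters. 1 further gene list is not reported here. Alternatives were RLE (DESeq2 size factors) or upper-quartile factors, no low-count filter, a stricter one (at least 50 counts in 6 libraries), fits of 2 groups alone, a block for the replicate number, DESeq2 1.42.0, limma 3.58.1 on log2(TPM + 1) or log2(TPM + 0.1) with at least 1 TPM required in 6 libraries, adjusted p alone, and leaving out each library. Egr1 as a covariate was added after the data had been seen.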

Additional observations from a re-analysis of the deposited data

How the results depend on the processing

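The count of changed genes among the 8 stayed within 1.5 times the value reported in 60 of 66 alternatives that kept all libraries and in 69 of 72 that left out 1. With limma on log2(TPM + 1), on log2(TPM + 0.1), or on log2(TPM + 1) without a filter, 1 gene changed at 1 Hz in place of 4, and 1 between 10 and 1 Hz in place of 2, Nr4a1 in each. With 1 library left out, the count at 1 Hz ran from 2 to 5 and was 2 without control replicate 3, control replicate 4, or 1 Hz replicate 3. The same ranges were 3 to 4 at 4 Hz, 0 to 0 at 10 Hz, 2 to 3 for 10 against 1 Hz, and 2 to 4 for 10 against 4 Hz. With a block for the replicate number, 3 genes changed at 1 Hz and 3 at 4 Hz, and Egr2 at 1 Hz (adjusted p = 0.0798) and Ier2 between 10 and 4 Hz (adjusted p = 0.0503) were no longer called. The numbers do not pair the samples, since of 36 same-number pairs 3 correlated above 0.1 (r from -0.33 to 0.24) and 0 of 24 libraries lay closest to their own number. Values near 0 changed sign. On the 3 TPM settings in the order above, the log2(FC) of Srf was -0.13, -0.13, and -0.13 at 1 Hz, -0.19, -0.19, and -0.19 at 4 Hz, and 0.26, 0.26, and 0.26 for 10 against 1 Hz. That of Nr4a3 was -0.25, -0.31, and -0.25 at 4 Hz and -0.0370, -0.0491, and -0.0370 for 4 against 1 Hz. At 10 Hz Egr1 gave -0.18, -0.18, and -0.18 and Egr3 -0.0574, -0.0614, and -0.0574, and Nr4a2 gave 0.0923, 0.16, and 0.0923 for 10 against 4 Hz. Elsewhere, Nr4a3 at 4 Hz was -0.00761 without a filter, Egr1 at 10 Hz -0.24 with the replicate block, and Srf for 10 against 4 Hz -0.00344 with upper-quartile factors. With Egr1 as a covariate, Nr4a3 at 4 Hz was -0.0231, Ier2 for 10 against 1 Hz 0.0466, Nr4a2 for 10 against 4 Hz 0.13, and Srf for 10 against 4 Hz -0.16. With 1 library left out, log2(FC) at 10 Hz ran over -0.46 to 0.21 for Egr1, -0.21 to 0.48 for Egr2, -0.0386 to 0.12 for Egr3, -0.0285 to 0.31 for Ier2, and -0.0444 to 0.27 for Nr4a1. It ran over -0.083 to 0.00162 for Nr4a3 at 1 Hz and -0.0157 to 0.0688 at 4 Hz, -0.22 to 0.0481 for Nr4a2 between 10 and 4 Hz, and for Srf -0.0969 to 0.0702 (10 against 1 Hz), -0.0169 to 0.13 (10 against 4 Hz), and -0.15 to 0.0339 (4 against 1 Hz). The cause of these shifts was not tested. Depth limits Nr4a2 most, and in 32 groups of 6 libraries over the 8 genes and 4 conditions, 0 held a library far from the others by Dixon's criterion. This criterion judges 1 extreme library at a time and does not flag a group split into 2 sets, such as Egr1 in the controls.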
